A study of Mus musculus with 8 samples.

Results

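The Schlafen (Slfn) genes of the mouse are a family of related genes that lie side by side on chromosome 11, and 7 of them, Slfn1, Slfn2, Slfn3, Slfn4, Slfn5, Slfn8 and Slfn9, were followed here among 46078 counted genes. The family was chosen from the measured values themselves, because Slfn1 was among the genes with the strongest falls when aged garlic extract was added to LPS. The values of AGE+LPS against LPS are therefore given as a description, from which nothing is concluded. The study measured polyadenylated RNA by sequencing in BV-2 cells, an immortalized mouse microglial line, and asked how aged garlic extract (AGE) and one of its components, the sugar-amino acid conjugate FruArg, alter the response to lipopolysaccharide (LPS), a bacterial surface molecule that activates innate immune cells. Cells of all 4 groups were kept without serum before treatment. Control cells received no LPS, LPS cells received 100 ng/mL for 20 h, AGE+LPS cells received 0.5% (v/v) AGE from 1 h before the same LPS dose, and FruArg+LPS cells received 3 mM FruArg from 1 h before it. Each group had 2 libraries.

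As background, Schlafen proteins share a conserved core at their amino-terminal end, and the mouse family is sorted by length into short (Slfn1, Slfn2), intermediate (Slfn3, Slfn4) and long members (Slfn5, Slfn8, Slfn9), the last with an added domain related to helicases. The family took its name from the German word for sleep, after the slowed growth of thymocytes that expressed its founding member, and its members have since been linked to quiescence of immune cells, to binding or cleavage of transfer RNA and to restriction of viruses. Many are known as genes that type I interferon induces in macrophages.

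The 8 libraries held 2707500 and 8995052 counts in Control, 8720784 and 12069807 in LPS, 6795464 and 6669072 in AGE+LPS and 4692715 and 5822113 in FruArg+LPS, for replicates 1 and 2 in that order, which is the order of every pair of values given for a group. Levels are CPM, in which a gene's counts are divided by its library's total and brought to one common scale, after TMM scaling, which corrects library sizes for differences in composition. A count of 3, taken as the floor, was worth between 0.276 and 0.935 CPM, and this floor covers counting error only, since the reads carried no molecular identifiers. Differences were tested with edgeR's quasi-likelihood test and Benjamini-Hochberg adjustment over all genes that passed the filter on low counts. A gene was called a differentially expressed gene (DEG) when its adjusted p was below 0.05 and its log2 fold change was at least 1 in size. The labels do not say whether replicates were separate cultures, so p-values measure only the spread between these samples, which may be technical. Replicate 1 of every group was read on lane 3 and replicate 2 on lane 6. The column names of replicate 2 also carry a mark that those of replicate 1 lack, and its meaning is not stated. Results are therefore also given from a fit in which the replicate is a block, so that libraries are compared within a lane. With 2 libraries per group, the block leaves little spread within a gene to measure. Its p-values rest mostly on spread pooled over genes, and their small size is not read as stronger evidence. LPS against Control and FruArg+LPS against LPS share the LPS libraries with the comparison that chose the family, AGE+LPS against Control and FruArg+LPS against AGE+LPS share its AGE+LPS libraries, and FruArg+LPS against Control shares none. Where libraries are shared, the value of Slfn1 is not independent of that choice. In whole cultures, fewer cells of a type and less RNA per cell cannot be told apart.

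The effect of LPS on the family was the first comparison. The filter on low counts was passed in both groups by 6 of 7 members, and 6 of these 6 were up-regulated by LPS relative to Control, from 2.57-fold for Slfn3 to 55.7-fold for Slfn4, where 11.5% of 12888 genes tested were called higher. Slfn1 passed it only through the LPS libraries and so had to differ, and its value, 82.1-fold, is a description. Both LPS libraries lay above both Control libraries for these 6 members and Slfn1, as they did for 31.6% of all genes tested. All 14 ratios of LPS to Control taken within a lane were positive, but those of Slfn1 had to be and are a description.

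Among the short members, Slfn1 (ENSMUSG00000078763, GRCm38 chromosome 11, 83116849 to 83122670, plus strand) is the founding gene, whose expression in thymocytes slows their growth. Its counts were 0 and 6 in Control, 206 and 472 in LPS, 14 and 7 in AGE+LPS and 14 and 37 in FruArg+LPS, which is 0 and 0.563, 25.8 and 43.5, 2.00 and 1.06, and 3.21 and 7.05 CPM. Slfn1 was thus close to the floor in untreated cells, high in both LPS libraries, and low again in both co-treatments, and no group overlapped another. The log2 fold change of LPS against Control was 6.36 (SE 0.56, 95% confidence interval 5.11 to 7.61). Without Control replicate 2 it was 10.999, a fitted value that depends on the prior count because the Control library left had 0 counts.

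Slfn2 (ENSMUSG00000072620, GRCm38 chromosome 11, 83065112 to 83070678, plus strand) is the short member whose loss breaks the quiescence of T cells and monocytes. It stood at 148 and 186 CPM in Control, 1537 and 1833 CPM in LPS, 778 and 893 CPM in AGE+LPS and 824 and 1449 CPM in FruArg+LPS. Every treated library was above every Control library, the LPS libraries were the highest pair, and FruArg+LPS replicate 2 came close to LPS replicate 1 without reaching it. Against Control, LPS raised Slfn2 by 3.37 on the log2 scale (SE 0.25, interval 2.80 to 3.94, edgeR adjusted p = 3.4e-05).

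Of the intermediate members, Slfn3 (ENSMUSG00000018986, GRCm38 chromosome 11, 83191330 to 83215154, plus strand) has been studied in differentiation of the intestinal epithelium. Its levels were 21.2 and 24.5 CPM in Control, 51.5 and 63.7 CPM in LPS, 17.4 and 20.9 CPM in AGE+LPS and 10.6 and 30.3 CPM in FruArg+LPS. LPS libraries were the highest, both AGE+LPS libraries lay just under both Control libraries, and the FruArg+LPS libraries lay on either side of Control. The log2 fold change of LPS against Control was 1.36 (SE 0.23, interval 0.84 to 1.88, edgeR adjusted p = 0.0020). With scaling by library size alone it was 0.94, under the fold minimum.

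Slfn4 (ENSMUSG00000000204, GRCm38 chromosome 11, 83175186 to 83190216, plus strand) is a myeloid gene that changes during macrophage activation and marks a population of suppressor cells in the stomach. Its levels were 5.30 and 6.10 CPM in Control, 209 and 423 CPM in LPS, 34.6 and 34.5 CPM in AGE+LPS and 37.7 and 80.9 CPM in FruArg+LPS. No pair of groups overlapped for Slfn4: Control was lowest, then AGE+LPS, FruArg+LPS and LPS. LPS raised it by 5.80 on the log2 scale (SE 0.39, interval 4.91 to 6.69, edgeR adjusted p = 2.1e-05). This value was 5.20 without LPS replicate 2 and 6.22 without LPS replicate 1.

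Among the long members, Slfn5 (ENSMUSG00000054404, GRCm38 chromosome 11, 82951349 to 82964840, plus strand) encodes a protein of the nucleus that has been described as a regulator of transcription. It had 17.2 and 20.8 CPM in Control, 172 and 269 CPM in LPS, 40.2 and 47.1 CPM in AGE+LPS and 46.9 and 90.3 CPM in FruArg+LPS. Control was lowest and LPS highest without overlap, and the co-treatments overlapped each other between them. LPS against Control gave a log2 fold change of 3.56 (SE 0.28, interval 2.93 to 4.19, edgeR adjusted p = 4.0e-05).

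Slfn8 (ENSMUSG00000035208, GRCm38 chromosome 11, 83002158 to 83020810, minus strand) and Slfn9 (ENSMUSG00000069793, GRCm38 chromosome 11, 82978390 to 82991830, minus strand) are close copies of each other. Slfn8 was measured at 17.2 and 27.8 CPM in Control, 131 and 218 CPM in LPS, 38.0 and 49.2 CPM in AGE+LPS and 34.2 and 75.2 CPM in FruArg+LPS. Slfn9 was measured at 16.2 and 29.6 CPM in Control, 56.7 and 106 CPM in LPS, 10.7 and 16.7 CPM in AGE+LPS and 10.8 and 27.4 CPM in FruArg+LPS. LPS was the highest group for both genes, but the co-treated libraries of Slfn8 lay above Control, while those of Slfn9 overlapped it. The log2 fold change of LPS against Control was 2.96 for Slfn8 (SE 0.32, interval 2.24 to 3.67, edgeR adjusted p = 1.8e-04). It was 1.82 for Slfn9 (SE 0.35, interval 1.03 to 2.61, edgeR adjusted p = 0.0041).

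**Figure D1:**
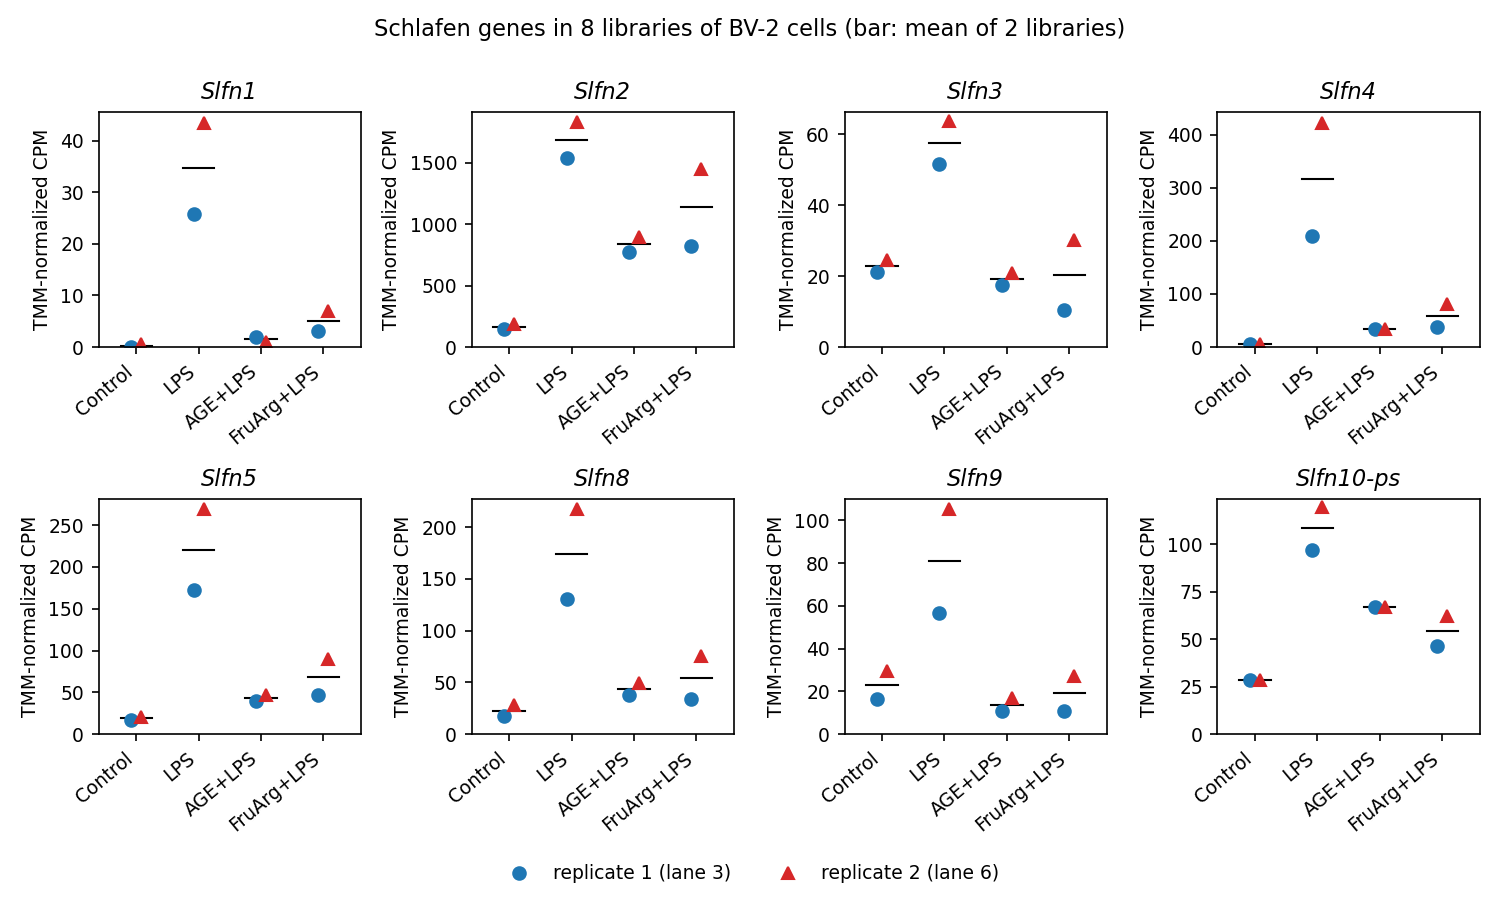
Levels of the 7 members and the pseudogene Slfn10-ps in each of the 8 libraries, in TMM-scaled CPM, one panel per gene, with circles for replicate 1 (lane 3), triangles for replicate 2 (lane 6) and a bar for the group mean. LPS holds the 2 highest libraries in every panel, while the co-treated libraries of Slfn3 and Slfn9 lie around the Control libraries.

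How AGE co-treatment changed the LPS level is described here for the comparison that chose the family. The log2 fold change of AGE+LPS against LPS was −4.48 for Slfn1, −1.01 for Slfn2, −1.58 for Slfn3, −3.19 for Slfn4, −2.34 for Slfn5, −1.998 for Slfn8 and −2.57 for Slfn9. For completeness, 6 of 7 members, all but Slfn2, met the rule for a call, as did 0.503% of 12317 genes in the same direction, and 7 of 7 met it with the replicate block, beside 4.82% of all genes. These counts are partly fixed by the choice of the family and nothing is read from them. Within lane 3 the log2 ratio ran from −3.51 (Slfn1) to −0.98 (Slfn2), and within lane 6 from −5.02 (Slfn1) to −1.04 (Slfn2).

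How FruArg co-treatment changed the LPS level was the next question. All 7 members lay lower in both FruArg+LPS libraries than in both LPS libraries, as did 24.0% of 12071 genes tested. The edgeR test without the block called 0 of 7 members lower, and 0% of all genes tested, although 6 of 7 members, all but Slfn2, and 1543 of all genes had an unadjusted p under 0.05. DESeq2 called 6 of 7 members lower, beside 1.08% of 9671 genes tested. With the replicate block, edgeR called 6 of 7 members lower, beside 3.48% of all genes, again all but Slfn2. Slfn1, whose LPS values helped choose the family, is among the members counted, and its part in these counts is a description.

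Slfn1 had the largest difference in this comparison, with a log2 fold change of −2.73 (SE 0.44, interval −3.73 to −1.73, edgeR adjusted p = 0.17) and of −2.77 with the block (edgeR adjusted p = 6.9e-11). As the LPS values of Slfn1 helped choose the family, its result and its rank are a description. Slfn4 followed at −2.41 (SE 0.43, interval −3.39 to −1.43, edgeR adjusted p = 0.18) and −2.42 with the block (edgeR adjusted p = 2.8e-17). The p-values with the block, here and below, rest mostly on spread pooled over genes. The long members gave −2.07 for Slfn9 (SE 0.46), −1.68 for Slfn5 (SE 0.36) and −1.66 for Slfn8 (SE 0.39), with edgeR adjusted p of 0.20, 0.19 and 0.21, and of 1.8e-12, 1.7e-11 and 4.2e-11 with the block. Slfn3 gave −1.48 (SE 0.43, edgeR adjusted p = 0.27) and −1.59 with the block (edgeR adjusted p = 1.5e-07). For Slfn2 the value was −0.56 (SE 0.31, interval −1.27 to 0.15, edgeR adjusted p = 0.45), and −0.61 with the block, under the fold minimum. With other settings or a library left out, the log2 fold change ran from −3.43 to −2.29 for Slfn1 and from −3.07 to −1.81 for Slfn4. It ran from −2.91 to −1.55 for Slfn9, from −2.24 to −1.28 for Slfn5 and from −2.35 to −1.20 for Slfn8. For Slfn3 it ran from −2.45 to −0.92 and for Slfn2 from −1.03 to −0.21, so both crossed the fold minimum. Over all settings and left-out libraries the adjusted p of edgeR or DESeq2 ran from 2.8e-17 to 0.18 for Slfn4, from 6.9e-11 to 0.18 for Slfn1, from 1.8e-12 to 0.21 for Slfn9, from 1.7e-11 to 0.21 for Slfn5, from 4.2e-11 to 0.31 for Slfn8 and from 1.5e-07 to 0.66 for Slfn3.

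The number of members called against LPS turned on single libraries: edgeR called 3 lower without FruArg+LPS replicate 1 (Slfn1, Slfn4, Slfn9), 6 without FruArg+LPS replicate 2, 5 without LPS replicate 1 (all but Slfn2 and Slfn3) and 0 without LPS replicate 2. The share of all genes called lower moved as well, at 0.233%, 6.89%, 1.11% and 0.0245% in the same order. Within a lane the log2 ratios of FruArg+LPS to LPS were −2.90 and −2.58 for Slfn1, −0.90 and −0.34 for Slfn2, −2.25 and −1.07 for Slfn3 and −2.46 and −2.38 for Slfn4, in lane 3 and lane 6. For the long members they were −1.87 and −1.57 (Slfn5), −1.93 and −1.53 (Slfn8) and −2.36 and −1.93 (Slfn9). All 14 were negative, and in each gene the ratio was larger in size in lane 3.

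The level left under AGE+LPS was compared with untreated cells. Slfn2, Slfn4 and Slfn5 remained above Control, with log2 fold changes of 2.34 (SE 0.22, edgeR adjusted p = 1.7e-04), 2.59 (SE 0.26, edgeR adjusted p = 2.3e-04) and 1.20 (SE 0.23, edgeR adjusted p = 0.0065). These were 3 of the 6 members that passed the filter on low counts, where 7.64% of 12449 genes tested were called higher, and the same 3 with the replicate block, beside 8.66% of all genes. Slfn1 did not pass it, with 6 counts over both Control libraries and 21 over both AGE+LPS libraries. Slfn8 gave 0.94 (SE 0.27, edgeR adjusted p = 0.042), just under the fold minimum, and was called at 1.10 without AGE+LPS replicate 1 and at 1.36 without Control replicate 2. For Slfn3 the value was −0.24 (SE 0.24, edgeR adjusted p = 0.53). Slfn9 gave −0.76 (SE 0.34, edgeR adjusted p = 0.16) and was called lower, at −1.11 and −1.08, without AGE+LPS replicate 2 and without Control replicate 1. With scaling by library size alone, Slfn5 stood at 0.95, under the fold minimum.

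The level left under FruArg+LPS was compared with Control in libraries that played no part in choosing the family. Of the 6 members that passed the filter in both groups, 3 were above Control, Slfn2, Slfn4 and Slfn5, where 9.59% of 12038 genes tested were called higher. Slfn2 rose by 2.79 on the log2 scale (SE 0.31, interval 2.08 to 3.50, edgeR adjusted p = 6.7e-04), Slfn4 by 3.38 (SE 0.41, interval 2.44 to 4.32, edgeR adjusted p = 0.0010) and Slfn5 by 1.87 (SE 0.34, interval 1.09 to 2.64, edgeR adjusted p = 0.0062). Slfn1 passed it only through the FruArg+LPS libraries, so its log2 fold change of 3.66 (SE 0.91, interval 1.57 to 5.76) is a description. It was 3.16 without Control replicate 1, where it no longer met the rule for a call, and 7.47 without Control replicate 2, against a Control library with 0 counts.

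Slfn8 gave 1.29 against Control (SE 0.40, interval 0.37 to 2.20, edgeR adjusted p = 0.051) and was called with the replicate block at 1.28 (edgeR adjusted p = 3.2e-04, range over all settings 2.1e-11 to 0.12), which made 4 of these 6 members beside 10.4% of all genes. The log2 fold change of Slfn8 was 1.73 without FruArg+LPS replicate 1 and 1.67 without Control replicate 2. Its lowest value over all settings and left-out libraries was 0.58, under the fold minimum. Slfn3 gave −0.13 (SE 0.44, interval −1.14 to 0.88, edgeR adjusted p = 0.86) and Slfn9 −0.25 (SE 0.45, interval −1.30 to 0.79, edgeR adjusted p = 0.73). These intervals allow changes past 2-fold downward, and without FruArg+LPS replicate 2 both were called lower, at −1.10 and −1.12. Without FruArg+LPS replicate 1 their values were 0.43 and 0.24.

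**Figure D2:**
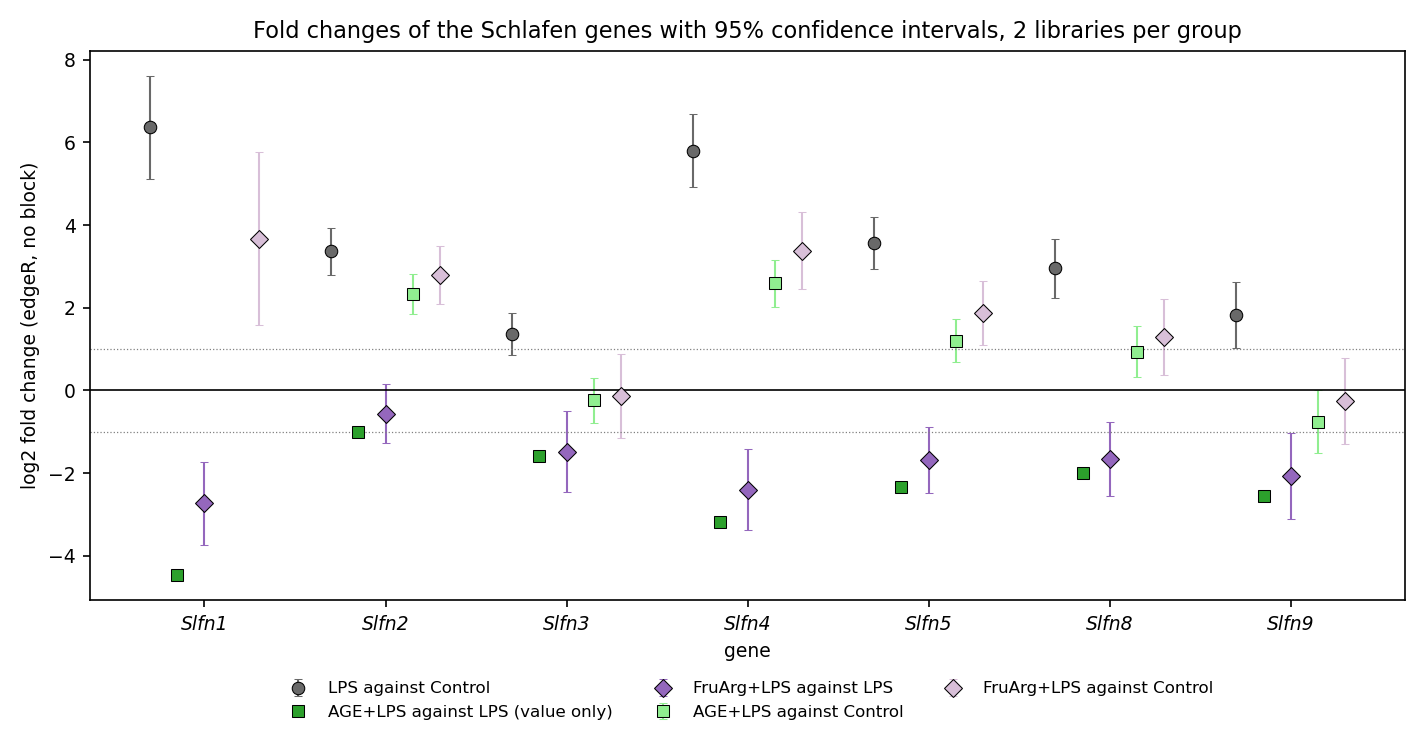
Log2 fold changes of the 7 members in 5 comparisons from edgeR without the block, with 95% confidence intervals for 4 of them and the value alone for AGE+LPS against LPS, and dotted lines at the fold minimum of 1 in size. LPS against Control runs from 1.36 to 6.36, and FruArg+LPS against LPS from −2.73 to −0.56.

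The co-treatments were also compared with each other at the same LPS dose, although AGE is a mixture and FruArg 1 compound, so their doses are not matched. Called by edgeR were 0 of the 6 members that passed the filter in both groups and 0% of 11915 genes tested, with 0 of these 6 and 668 genes at an unadjusted p under 0.05. DESeq2 called 0 members, and edgeR with the replicate block called 0 members beside 0.898% of all genes. The log2 fold change of FruArg+LPS against AGE+LPS was 0.77 for Slfn4 (−0.01 to 1.56), 0.65 for Slfn5 (−0.08 to 1.38), 0.48 for Slfn9 (−0.51 to 1.47), 0.44 for Slfn2 (−0.22 to 1.09), 0.32 for Slfn8 (−0.48 to 1.13) and 0.09 for Slfn3 (−0.88 to 1.06), with edgeR adjusted p between 0.84 and 0.97. Slfn1, which passed the filter in both FruArg+LPS libraries but in 1 of 2 AGE+LPS libraries, was not called and had a value of 1.73, given as a description. Each interval reaches past a 2-fold increase, so a difference of that size may have gone undetected. Within lane 3 the log2 ratio ran from −0.71 (Slfn3) to 0.61 (Slfn1), and within lane 6 from 0.53 (Slfn3) to 2.44 (Slfn1). For Slfn2, Slfn3, Slfn8 and Slfn9 the sign turned without FruArg+LPS replicate 2, to −0.02, −0.86, −0.35 and −0.35.

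The libraries of a group differed in a common direction across the family. Replicate 2 was higher than replicate 1 for 7 of 7 members in Control, in LPS and in FruArg+LPS, and for 5 of 7 in AGE+LPS. Among 10017 genes with a mean of at least 5 CPM, replicate 2 was higher for 53.2%, 48.0%, 51.0% and 49.7% in the same order of groups. The ratio of replicate 2 to replicate 1, leaving out Slfn1, reached from 1.76 to 2.87 in FruArg+LPS, beside 1.15 to 1.82 in Control, 1.19 to 2.03 in LPS and 1.00 to 1.56 in AGE+LPS. A lane, a culture and whatever else the column names mark cannot be told apart here.

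The share of the LPS increase that was left under co-treatment was computed within each lane as a description. Under AGE it was 45.3% and 42.9% for Slfn2 in lanes 3 and 6, the highest of the family, and 18.3% and 11.3% for Slfn8, 14.8% and 10.6% for Slfn5, 14.4% and 6.81% for Slfn4 and 7.76% and 1.16% for Slfn1. Slfn3, at −12.4% and −9.03%, and Slfn9, at −13.6% and −16.9%, ended below Control. Under FruArg the share was 48.6% and 76.7% for Slfn2, 19.1% and 27.9% for Slfn5, 15.0% and 25.0% for Slfn8, 15.9% and 18.0% for Slfn4 and 12.5% and 15.1% for Slfn1. It was −35.2% and 14.7% for Slfn3 and −13.4% and −2.81% for Slfn9. Under FruArg the share of Slfn2 was thus the largest in both lanes. Shares under AGE rest on the values that chose the family, and their order is a description.

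Levels of different members can be compared only per length, as CPM per kb of exon. On that scale the mean level in Control ran in the order Slfn2 (100.5), Slfn3 (6.70), Slfn8 (5.49), Slfn9 (3.84), Slfn5 (3.00), Slfn4 (1.44) and Slfn1 (0.151). The neighbours Slfn3 to Slfn8, Slfn8 to Slfn9 and Slfn9 to Slfn5 overlapped between libraries, although the order was the same within each lane. In LPS the order of levels was Slfn2 (1013), Slfn4 (79.6), Slfn8 (42.6), Slfn5 (34.9), Slfn1 (18.6), Slfn3 (16.9) and Slfn9 (13.6), with overlap between Slfn4 and Slfn8, Slfn8 and Slfn5, Slfn1 and Slfn3, and Slfn3 and Slfn9. Within lane 3 Slfn3 lay above Slfn1, and the rest of this order held within each lane. Slfn4 and Slfn1 thus moved from the bottom of the order in untreated cells to places 2 and 5 under LPS.

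Under AGE+LPS the mean levels per kb were 502 (Slfn2), 10.7 (Slfn8), 8.71 (Slfn4), 6.89 (Slfn5), 5.63 (Slfn3), 2.30 (Slfn9) and 0.822 (Slfn1), with no overlap between neighbours. Under FruArg+LPS they were 683 (Slfn2), 15.0 (Slfn4), 13.4 (Slfn8), 10.8 (Slfn5), 5.99 (Slfn3), 3.20 (Slfn9) and 2.75 (Slfn1). Every neighbour overlapped the next between libraries except Slfn2, which stood apart, but within each lane the order was the same. Slfn2 made up 83.9% and 82.3% of the family's CPM per kb in Control and 86.0% and 80.8% in LPS. Its share was 93.5% and 93.4% in AGE+LPS and 93.9% and 92.5% in FruArg+LPS, above all 4 other libraries. The summed level of the 7 members was 225 and 295 CPM in Control, 2183 and 2956 CPM in LPS, 921 and 1062 CPM in AGE+LPS and 967 and 1760 CPM in FruArg+LPS.

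The 7 members lie with Slfn14, a long member known from the red cell and platelet lineages, and the pseudogene Slfn10-ps in a stretch of 335378 bases on chromosome 11 (82951349 to 83286726, GRCm38), 9 Schlafen genes in all. The plus strand carries Slfn5, Slfn2, Slfn1, Slfn4 and Slfn3, and the minus strand carries Slfn9, Slfn8, Slfn10-ps and Slfn14. The coding sequences of Slfn8 and Slfn9 matched at 92.7% of aligned bases, and so did those of Slfn3 and Slfn4, while the other 19 pairs of members matched at 63.2% to 77.0%. On the log2 scale the rise under LPS was 2.96 for Slfn8 and 1.82 for Slfn9, and 1.36 for Slfn3 and 5.80 for Slfn4.

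**Figure D3:**
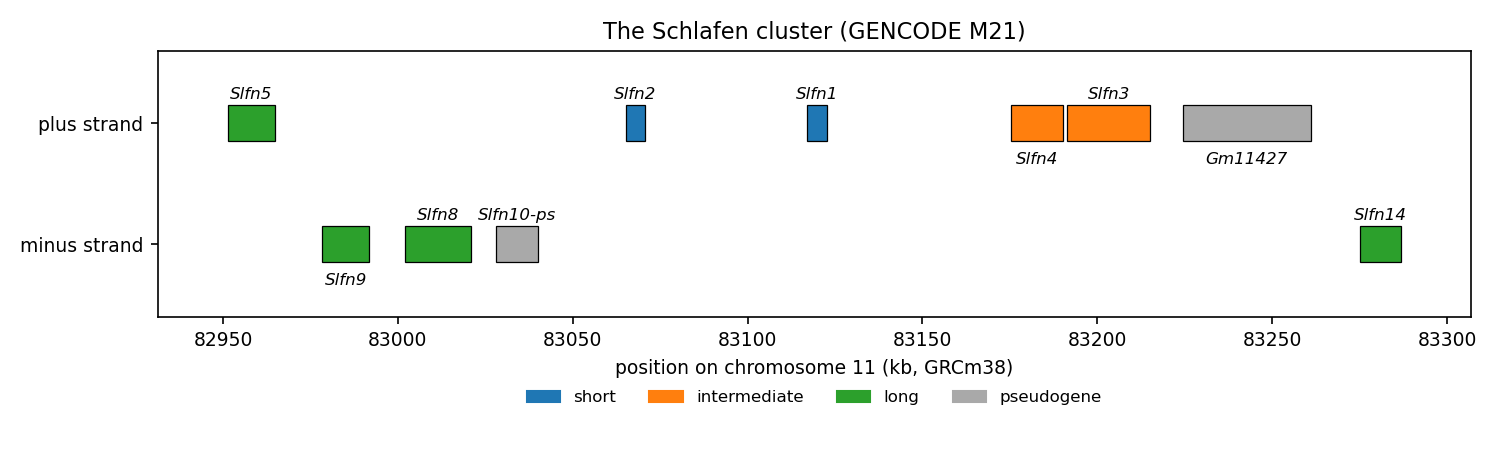
Map of the Schlafen cluster on chromosome 11 (GRCm38) in kb, with each gene drawn to scale on its strand and coloured by class. Genes of the plus strand include the short and intermediate members, Slfn5 and the pseudogene Gm11427, and genes of the minus strand include Slfn8, Slfn9, Slfn10-ps and Slfn14.

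Reads from near copies could have been split or lost in counting, since the handling of reads with several matches and of strand is not given in the sources used here. Of all stretches of 100 bases in a member's transcripts, 0% were shared with another gene for Slfn1, 0.128% for Slfn2, 0.271% for Slfn4, 2.92% for Slfn3, 3.38% for Slfn8 and 3.71% for Slfn9. Most of the shared stretches of Slfn9, 181, were shared with Slfn10-ps and 50 with Slfn8, and Slfn8 shared 105 with Slfn10-ps. Slfn3 shared 93 with Gm11427, a transcribed pseudogene at chromosome 11, 83224454 to 83260960, whose counts were 39 and 163 in Control, 224 and 307 in LPS, 117 and 141 in AGE+LPS and 46 and 62 in FruArg+LPS. Gm11427 was named after its values were seen. Slfn5 shared 6.40%, mostly with the antisense gene Slfn5os, which held 0 counts in all libraries but overlaps 559 exon bases (8.84%) of Slfn5. Values of Slfn3, Slfn5, Slfn8 and Slfn9 are uncertain to that degree.

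Of the Schlafen genes outside the members, Slfn10-ps stood at 28.4 and 28.5 CPM in Control, 97.3 and 119.6 CPM in LPS, 66.7 and 67.2 CPM in AGE+LPS and 46.6 and 62.5 CPM in FruArg+LPS. It was highest in LPS, and every treated library lay above Control. Its log2 fold change was 1.97 for LPS against Control (SE 0.22, edgeR adjusted p = 2.0e-04) and 1.25 for AGE+LPS against Control (SE 0.20, edgeR adjusted p = 0.0029). For FruArg+LPS against LPS it was −0.98 and for FruArg+LPS against Control 0.97, both under the fold minimum. Slfn14 had at most 3 counts in each library, and the distant relative Slfnl1 on chromosome 4 had 0 in all 8.

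As the members rose together under LPS, their promoters were searched, as 250 bases before each start, in RefSeq (GRCm38.p6), where all 7 members had an entry and Slfn8 had 2. The starts are those of RefSeq and differ from the gene bounds given above for Slfn1, Slfn5 and 1 of the entries of Slfn8, so that the window of Slfn5, 82951852 to 82952101, lies inside the gene as annotated by GENCODE. Letters were searched on both strands in 32851 promoters, and a match is a description of letters, not a binding site. The core of the interferon-stimulated response element, GAAANNGAA, was in 7.13% of all promoters and in those of Slfn5, with 2 matches, Slfn8 and Slfn9. The gamma-activated site, TTCNNNGAA, was in 7.02% of all promoters, and the PU.1 letters GAGGAAGT in 2.44%, and neither was in these windows of the 7 members. TATAAA, in 12.4% of all promoters, was in that of Slfn4, and an NF-kB site, in 7.25%, was in those of Slfn1 and Slfn9.

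The match of the close copies Slfn8 and Slfn9 is shown because it has the same letters at nearly the same distance, 47 to 39 and 44 to 36 bases before the start. In the other entry of Slfn8, whose start is a different base, the same letters lie at positions −135 to −127 from it. Both runs are written on the minus strand, 5′ to 3′, Slfn8 from chr11:83020811-83020930 and Slfn9 from chr11:82991831-82991950, and end at the base before the start. Capitals mark the reverse complement of GAAANNGAA. The promoters also shared a run of 20 bases, found in 3 of the 32851, which are that of Slfn9 and both entries of Slfn8.
Slfn8: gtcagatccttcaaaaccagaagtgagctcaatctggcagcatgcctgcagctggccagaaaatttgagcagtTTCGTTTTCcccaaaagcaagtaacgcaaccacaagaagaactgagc
Slfn9: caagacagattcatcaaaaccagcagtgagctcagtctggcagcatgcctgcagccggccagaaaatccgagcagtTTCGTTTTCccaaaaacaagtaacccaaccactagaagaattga

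The promoters of the short and intermediate members, which lack these letters, shared a run of 9 bases, ACTTCCTGG, that was noticed after the sequences were compared and is found in 230 of the 32851 promoters (0.700%). They are shown so that its place can be read, on the plus strand, as the last 80 bases before the start, with the run in capitals. Slfn1 is chr11:83116740-83116819, Slfn2 chr11:83065032-83065111, Slfn3 chr11:83191250-83191329 and Slfn4 chr11:83175106-83175185. The run began 74, 55, 42 and 73 bases before the start in that order.
Slfn1: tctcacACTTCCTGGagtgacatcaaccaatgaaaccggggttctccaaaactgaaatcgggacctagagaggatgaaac
Slfn2: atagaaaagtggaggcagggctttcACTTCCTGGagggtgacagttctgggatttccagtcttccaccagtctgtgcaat
Slfn3: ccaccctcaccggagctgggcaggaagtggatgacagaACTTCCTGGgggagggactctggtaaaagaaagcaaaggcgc
Slfn4: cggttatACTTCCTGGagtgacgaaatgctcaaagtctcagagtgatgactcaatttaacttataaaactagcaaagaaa

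Genes of the interferon pathway were read beside the family. Among all genes, edgeR called 11.5% higher and 11.1% lower in LPS against Control. The shares were 7.64% and 7.41% in AGE+LPS against Control, and 9.59% and 7.84% in FruArg+LPS against Control. They were 0.292% and 0.503% in AGE+LPS against LPS, and 0% and 0% in FruArg+LPS against LPS. This list and those below were chosen with earlier results of these data known, so their counts may be partly fixed by the choice. Of 20 interferon ligands, 17 had 0 counts in all libraries and 0 passed the filter on low counts. Ifnb1, which encodes interferon beta, had 0 and 2 counts in Control, 8 and 24 in LPS, 0 and 3 in AGE+LPS and 0 and 4 in FruArg+LPS, so LPS was the only group with both libraries above the floor. Of 11 receptors and signal transducers, LPS up-regulated 5 and down-regulated 0 (median log2 fold change 0.84, beside 0.02 over all genes), led by the kinase gene Jak2 (3.39), the transcription factor gene Stat2 (2.42) and the kinase gene Tyk2 (2.25). Against Control, 4 were higher in AGE+LPS (median 0.72) and 5 in FruArg+LPS (median 0.73). Against LPS, edgeR called 0 of them in AGE+LPS (4 at an unadjusted p under 0.05, DESeq2 2 lower, block 2 lower) and 0 in FruArg+LPS (2 at an unadjusted p under 0.05, DESeq2 0, block 0).

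Of 7 interferon regulatory factors tested, 3 were up-regulated by LPS (median 0.13), Irf1 by 3.32, Irf7 by 3.17 and Irf5 by 1.52 on the log2 scale. Irf7, the factor that amplifies type I interferon transcription, was called lower in AGE+LPS than in LPS (−1.42), the 1 of 7 so called by edgeR. With the block 4 of 7 were called lower, and with DESeq2 3 of 8. In FruArg+LPS against LPS edgeR called 0 of 7, with 3 at an unadjusted p under 0.05, and DESeq2 and the block also called 0. Irf1 and Irf7 remained above Control in both co-treatments, by 1.99 and 1.74 with AGE and by 2.60 and 2.41 with FruArg.

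Of 41 interferon-stimulated genes, 41 were up-regulated by LPS, and so were 38 of the 38 that passed the filter in every library. Among all genes 11.5% were called higher. The median log2 fold change of the 41 was 3.06. They were led by the chemokine gene Cxcl10 (6.54), the GTPase gene Gbp2 (6.25) and Ifi205 (6.17), which did not pass in every library. In AGE+LPS against LPS edgeR called 10 lower (median −1.49, beside 0.00 over all genes), DESeq2 31 and edgeR with the block 31. The shares of all genes called lower were 0.503%, 2.48% and 4.82% in that order. Among the 10 the largest falls were those of Mx1 (−3.67), Ifit2 (−2.74) and Phf11b (−2.54). In FruArg+LPS against LPS edgeR called 0, with a median of −1.08 and 28 at an unadjusted p under 0.05, DESeq2 called 12 lower and edgeR with the block 23 lower. The shares of all genes called lower there were 0%, 1.08% and 3.48%. Against Control 35 were higher in AGE+LPS (median 1.498) and 35 in FruArg+LPS (median 2.11), and 32 and 32 of the 38 that passed in every library. Their summed level was 2163 and 3134 CPM in Control, 28821 and 40541 CPM in LPS, 9078 and 10957 CPM in AGE+LPS and 10345 and 20152 CPM in FruArg+LPS, so that replicate 2 was the higher library in every group, as it was for most members of the family. The part of this difference between libraries in the results for the family was not tested.

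Targets of NF-kB, the factor that LPS activates through its receptor, were read for comparison. LPS up-regulated 28 of 28 (median 3.72), and 23 of the 23 that passed the filter in every library, beside 11.5% of all genes. The largest log2 fold changes, of Traf1 (10.31), Il6 (10.07) and Nos2 (9.54), belonged to genes under the filter in at least 1 Control library, and their sizes are a description. AGE+LPS against LPS called 2 higher (Cxcl2, 1.68, and Il1b, 1.54) and 1 lower (Nos2, −2.61) by edgeR, with a median of −0.19. DESeq2 called 3 higher and 2 lower there, and the block 3 higher and 3 lower. FruArg+LPS against LPS called 0 by edgeR (median 0.14, 9 at an unadjusted p under 0.05), 3 higher and 2 lower by DESeq2, and 4 higher and 2 lower with the block. Against Control, 26 of 27 tested were higher in AGE+LPS (median 3.71) and 27 of 28 in FruArg+LPS (median 3.99), and 22 of 23 and 21 of 22 among those that passed in every library. Between the co-treatments edgeR called 0 genes of each of these 4 lists, with 1 receptor or transducer, 2 regulatory factors, 6 interferon-stimulated genes and 4 NF-kB targets at an unadjusted p under 0.05. DESeq2 called 0 there, and the block called 1, an interferon-stimulated gene, higher in FruArg+LPS.

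The genes whose pattern over the 8 libraries was most like that of a member were found as the smallest root-mean-square difference of centred log2 CPM among 9983 genes with a mean of at least 5 CPM that also passed the filter on low counts. For Slfn1 these were Slamf7 (0.52), Ifi206 (0.55), Mx1 (0.60), Hrc (0.61) and Gm12250 (0.72). Slamf7 had 4.30 ± 2.55 CPM in Control, 351 ± 74.5 in LPS, 32.6 ± 2.36 in AGE+LPS and 90.3 ± 33.3 in FruArg+LPS (mean ± SD, n = 2). Mx1 stood at 4.51 ± 0.650, 207 ± 98.6, 16.3 ± 3.19 and 29.3 ± 18.4 CPM in the same order, beside 0.281 ± 0.398, 34.6 ± 12.5, 1.53 ± 0.664 and 5.13 ± 2.71 CPM for Slfn1 itself. With a prior count of 0.5 in place of 2 on the log2 scale, 2 of these 5 genes stayed on the list, Slamf7 and Ifi206. With values centred within each lane, Hrc came first, Ifit1bl1 entered and Gm12250 left.

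For Slfn2, the member with the highest mean CPM, the closest genes were Pappa2 (0.17), Slamf8 (0.17), Jak2 (0.18), Oasl1 (0.18) and Rapgef2 (0.20). With the prior count of 0.5, Pappa2 left this list and Irf7 entered it, and with values centred within each lane the same 5 genes stayed, with Slamf8 first. Oasl1 had 95.7 ± 12.3 CPM in Control, 1224 ± 37.3 in LPS, 609 ± 13.8 in AGE+LPS and 815 ± 223 in FruArg+LPS. Slamf8, which was closer, had 4.84 ± 0.211, 52.6 ± 1.96, 23.0 ± 1.83 and 34.4 ± 13.6 CPM in the same order. Slfn2 had 167 ± 26.5, 1685 ± 209, 835 ± 81.2 and 1136 ± 442 CPM. The courses are almost parallel because these genes were picked for likeness to Slfn2, so this is a description. Within the family, the closest pairs were Slfn5 and Slfn8 (0.27), Slfn3 and Slfn9 (0.41), Slfn2 and Slfn5 (0.58) and Slfn1 and Slfn4 (0.59), and the farthest was Slfn1 and Slfn3 (1.86). The near copies Slfn8 and Slfn9 (0.67) and Slfn3 and Slfn4 (1.65) were not the closest pairs.

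The label of a microglial line was read against markers of microglia and macrophages. Their summed level over 13 genes was 4100 and 4875 CPM in Control, 4357 and 4863 CPM in LPS, 4386 and 5035 CPM in AGE+LPS and 5650 and 5672 CPM in FruArg+LPS, with Adgre1 the most abundant. The markers of resting brain microglia were low or absent: Tmem119 had 0 to 6 counts, Cx3cr1 0 to 43 and P2ry12 1 to 99. LPS raised 1 of 12 tested, Adgre1 (1.39), and lowered 4, among them Trem2 (−1.37) and Itgam (−1.08), with a median of −0.64, and 3 of the 11 that passed the filter in every library. Against Control, AGE+LPS had 1 higher and 5 lower (median −0.41) and FruArg+LPS 1 higher and 4 lower (median −0.23), and of the 10 that passed in every library 3 and 2 were lower. In the co-treatments against LPS and against each other edgeR called 0, with 5, 3 and 3 genes at an unadjusted p under 0.05. Against LPS, DESeq2 and the block each called 1 higher and 1 lower in AGE+LPS and 1 higher in FruArg+LPS. Between the co-treatments both called 0.

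Markers of other cell types were summed in each library. The summed level was at most 0.381 CPM for 6 neuron markers (Map2 the most abundant, and Rbfox3, Syt1, Snap25 and Gad1 at 0), 0.230 to 2.58 CPM for 4 astrocyte markers (Slc1a2, with Aqp4 and Aldh1l1 at 0) and at most 0.276 CPM for 4 fibroblast markers (none above 3 counts in a library). The 6 T cell markers summed to 5.92 to 11.4 CPM, nearly all from Lck, with Cd3e, Cd3g and Cd8a at 0. The 4 endothelial markers summed to 78.0 and 77.8 CPM in Control, 10.3 and 8.84 CPM in LPS, 17.2 and 19.0 CPM in AGE+LPS and 6.20 and 5.33 CPM in FruArg+LPS, nearly all from Kdr, which LPS lowered by a log2 fold change of −3.19, with Cldn5 at 0. The part of Kdr in the results for the family was not tested.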

How the data were processed

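RNA of 8 samples of BV-2 cells, 2 in each of 4 groups, was sequenced. The deposited table holds counts per Ensembl gene that the authors made with fastx_toolkit, TopHat2 and featureCounts on GRCm38; versions, strandedness and the handling of multiply mapped reads are not given in the sources used here. The paper's methods name TRIzol for RNA extraction and the labels an RNeasy kit. All columns were used, and 45143 of 46078 gene identifiers were matched to symbols of GENCODE release M21.

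Genes were filtered with filterByExpr, scaled by TMM and tested with edgeR 4.0.16 (glmQLFit, glmQLFTest, two-sided) on the 4 libraries of each of 6 comparisons, in R 4.3.3 with limma 3.58.1. Alternatives were DESeq2 1.42.0, RLE size factors, library size scaling, other count filters, all groups in one fit, no fold minimum, a replicate block and each library left out in turn. Ratios within a lane were added after seeing the data. Sequences and figures were handled in Python 3.11.15 with matplotlib 3.10.9. The code was tested on simulated data. Replicates of a group differed beyond sampling noise, with a chi-square per degree of freedom of 12.9 (Control) to 45.6 (LPS).

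Replicate numbers follow the lane given in the labels. Deviations of same-numbered libraries correlated in all 6 pairs of groups (r = 0.244 to 0.628 across 12873 genes, which are not independent replicates), so the numbers were taken as pairs.

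Every member was named. Up to 3 genes were named per list and comparison, those with the largest change among called genes whose groups did not overlap and whose mean was at least 5 CPM, together with the 5 protein-coding genes flanking the cluster on each side. The lists held 203 symbols: other Schlafen genes, interferon ligands, receptors and transducers, interferon regulatory factors, interferon-stimulated genes, NF-kB targets, quiescence factors, cell cycle genes and markers of 8 cell types. Results of 2 of the marker lists are not reported here. Members and lists were chosen with earlier results of these data known.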

Additional observations from a re-analysis of the deposited data

How the results depend on the processing

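Of the 6 members that passed the filter in both groups, LPS against Control called 6 higher with edgeR, DESeq2 and the block, beside 11.5%, 10.1% and 12.4% of all genes. FruArg+LPS against Control called 3, 4 and 4 higher, beside 9.59%, 8.33% and 10.4%. AGE+LPS against Control called 3, 3 and 3 higher, beside 7.64%, 6.96% and 8.66%. With Slfn1 included, as a description, the counts were 6 or 7, 3 to 5 and 2 to 4 over the settings with all libraries. In AGE+LPS against LPS the count of members called is only a description. It was 6, and 3 with RLE size factors, 3 with at least 10 counts in every library and 5 with all groups in one fit. It was 7 with DESeq2, with at least 1 count and with the block. In FruArg+LPS against LPS it was 0, and 6 with DESeq2, 6 with at least 1 count, 6 with the replicate block and 0 to 6 with a library left out. The block changed no other call of a member than those given above and that of Slfn2 in AGE+LPS against LPS. Where a library was left out, the lone library of its group was assumed to vary like the other group. With at least 10 counts in every library Slfn1 was tested only in FruArg+LPS against LPS.

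Values whose sign turned belonged to differences that were not called with all libraries, although Slfn3 and Slfn9 were called lower than Control without FruArg+LPS replicate 2. In FruArg+LPS against Control, leaving out libraries moved Slfn3 from −1.10 to 0.43 and Slfn9 from −1.12 to 0.24. In FruArg+LPS against AGE+LPS it moved Slfn2 from −0.025 to 0.80, Slfn3 from −0.86 to 0.66, Slfn8 from −0.35 to 0.79 and Slfn9 from −0.35 to 1.01, and Slfn3 was −0.048 with library size scaling and −0.041 with the replicate block. The cause was not tested.

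Over all genes, AGE+LPS against LPS gave 98 DEGs, and 529 with DESeq2, 927 with at least 1 count, 376 with all groups in one fit, 1199 with the block and 349 to 646 with a library left out. FruArg+LPS against LPS gave 0, and 196, 503, 5, 766 and 5 to 1549 in that order. FruArg+LPS against AGE+LPS gave 0, and 40 with at least 1 count, 107 with the block and 10 to 233 with a library left out. FruArg+LPS against Control gave 2098, and 1448 to 3416 with a library left out. Library size scaling moved the median of all genes to −0.40 (LPS against Control), −0.24 (AGE+LPS against Control), −0.40 (FruArg+LPS against Control), 0.15 (AGE+LPS against LPS) and −0.15 (FruArg+LPS against AGE+LPS). It changed the DEGs from 1485 up and 1433 down to 932 and 2666, from 951 and 922 to 683 and 1385, from 1154 and 944 to 708 and 1936, and from 36 and 62 to 73 and 61, in the first 4 of these. Depth limits Slfn1 most, whose Control libraries held 0 and 6 counts.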

Other observations

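Because Schlafen genes are known for quiescence, lists of cell cycle genes and quiescence factors were read as well. LPS lowered 26 of 30 cell cycle genes and raised 0, beside 11.1% of all genes called lower, with a median log2 fold change of −2.56. Leaving out genes under 5 CPM on average, the largest falls were those of Birc5 (−3.86), Rrm2 (−3.85) and Aurkb (−3.56), all 3 under the filter on low counts in at least 1 LPS library, so that their sizes are a description. Of the 25 that passed in every library, 21 were lowered. Against Control, 27 were lower in AGE+LPS (median −2.09) and 25 in FruArg+LPS (median −2.74), and 25 of 28 and 16 of 21 among those that passed in every library. The shares of all genes called lower were 7.41% and 7.84%. For the cell cycle genes, the results by library and against LPS were as follows. Their summed level was 1523 and 1766 CPM in Control, 445 and 421 CPM in LPS, 442 and 409.7 CPM in AGE+LPS and 377 and 334 CPM in FruArg+LPS, so every treated library lay below both Control libraries. Against LPS edgeR called 0 of them in AGE+LPS and 0 in FruArg+LPS, with 7 and 3 at an unadjusted p under 0.05. DESeq2 called 1 higher in AGE+LPS and 0 in FruArg+LPS. The block called 5 higher and 1 lower in AGE+LPS, and 1 higher and 1 lower in FruArg+LPS. Between the co-treatments edgeR called 0, with 4 at an unadjusted p under 0.05, and DESeq2 and the block called 0. Of 15 quiescence factors tested, LPS raised 5 and lowered 2, where 11.5% of all genes were called higher and 11.1% lower. Those raised included the kinase inhibitor gene Cdkn1a (3.03) and Klf6 (2.03). Those lowered included Cdkn2c (−3.18), which was under the filter in at least 1 LPS library. Against Control, 4 were higher and 1 lower in AGE+LPS, led by Btg1 (2.15), and 4 higher and 2 lower in FruArg+LPS. In the co-treatments against LPS and against each other edgeR called 0 of 14, with 5, 1 and 1 at an unadjusted p under 0.05. DESeq2 called 1 lower in AGE+LPS against LPS, 0 in FruArg+LPS against LPS and 0 between the co-treatments. The block called 1 higher and 1 lower, 0 and 0 in the same order.

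Of the 10 protein-coding genes that flank the cluster, 5 on each side, 5 passed the filter on low counts. Of these 5, LPS raised 0 and lowered 2, Nle1 (−1.45) and Rad51d (−1.12), with a median of 0.04. Among all genes 11.5% were called higher and 11.1% lower. The ubiquitin ligase gene Rffl was higher than in Control in both co-treatments, at 80.1 ± 1.28 CPM in AGE+LPS and 81.1 ± 16.9 CPM in FruArg+LPS against 24.9 ± 4.03 CPM in Control (n = 2, log2 fold changes 1.72 and 1.74, edgeR adjusted p = 8.4e-04 and 0.0024). Against LPS edgeR called 0 of the 5 in either co-treatment, with 2 and 2 at an unadjusted p under 0.05, while DESeq2 called 2 and 1 higher and the block 2 and 2. Between the co-treatments edgeR, DESeq2 and the block called 0, with 0 at an unadjusted p under 0.05. Fndc8, Rasl10b and Gas2l2 had 0 counts in all libraries.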
